A study of Mus musculus with 2 samples.

Results

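The genes described here encode SNARE proteins and the factors that load, clasp, prime, tether and recycle them, the machinery by which granules and vesicles fuse with their target membranes. They were chosen by gene symbol from the deposited table: Vamp, Stx, Stxbp, Snap, Syt, Sytl, Unc13, Vti1, Sec22 and Exoc genes, with Nsf, Napa, Napg, Bet1 and Gosr1. Where a gene had several transcripts, the one with the highest read total stands for it. The rule took 82 of 23477 genes. It also took Snap91, a clathrin assembly protein whose symbol resembles those of the SNARE genes, and Stxbp3b, which RefSeq lists as the pseudogene Stxbp3-ps.

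The samples were 2 preparations of eosinophils from colons of naive C57BL6 mice, forming 1 group. The labels name no mutation, transgene, treatment or age. The colons were enzymatically digested and the eosinophils sorted by flow cytometry. Pooling of mice and the sorting gate were not given in the sources used here. Messenger RNA was read near its 3′ end by CEL-Seq, with 3 technical libraries per sample. The deposited table holds 1 mean over the 6 libraries for each transcript, so no value per sample, SD or test between samples can be given. Levels are the mean RPKM of the authors (reads scaled to 1000000 reads and to 1 kilobase of transcript), with an exact 95% Poisson interval of the reads over the 6 libraries in parentheses. Reads cannot be taken as independent molecules here, since UMIs are not named in the labels. These intervals cover counting error only and take no account of spread between samples or of unequal library depth. RPM, reads per 1000000 reads on genes, leaves out transcript length. The read total behind the RPKM was not given and need not be the reads on genes. A minimum of 1 is therefore not the same cutoff on both scales, apart from length as well. In all, 7692119 reads over the 6 libraries fell on the kept transcripts. For a gene without a read, an upper limit of 3 reads, or 0.390 RPM, was set. The exact 95% Poisson interval of such a gene reaches 3.69 reads.

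Membrane fusion in the secretory pathway is driven by an R-SNARE on the vesicle, usually a VAMP, that zippers with Qa-, Qb- and Qc-SNAREs on the target membrane into a tight helical bundle. A Sec1/Munc18 protein, encoded by some of the Stxbp genes, clasps the syntaxin, Unc13 proteins prime the complex, synaptotagmins couple it to calcium, the exocyst tethers the vesicle beforehand, and the ATPase NSF with its SNAP adaptors takes the spent bundle apart. Eosinophils store cationic proteins and cytokines in secondary granules and release them by whole granule fusion or piecemeal, through small vesicles that shuttle from granule to surface. In human eosinophils VAMP2 has been placed on such cytokine-carrying vesicles, VAMP7 and VAMP8 on granules, and SNAP23 with syntaxin 4 at the plasma membrane.

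CEL-Seq primes on the poly(A) tail, so the reads of a gene come from the stretch just before its cleavage site. The 3′ ends of 5 members with high levels are therefore shown, as windows of 30 bases. For each, the GENCODE M21 transcript (GRCm38) of the gene that ends nearest to the end in the table was taken. Its end lies within 10 bases of that end, a closeness that this choice favours. The ends of other members were not compared in this way. Capitals mark the poly(A) signal. Stx3 appears with both of its annotated ends.
Vamp2 (chr11:69092354-69092383, + strand): aaatgtacAATAAAcgtgtaatgagtaacc
Vamp8 (chr6:72385231-72385260, - strand): tggtgggcAATAAAgacctcttggtatccc
Stx3, nearer end (chr19:11777493-11777522, - strand): aatttaaaAATAAAtgactttatactgatt
Stx3, farther end (chr19:11775120-11775149, - strand): tgggcattAATAAAtatctgttgaacccac
Snap47 (chr11:59407149-59407178, - strand): gtgtgcgtAATAAAagaatgtttattcgat
Napa (chr7:16117946-16117975, + strand): acacaaatAATAAAaacgagaggccatgcc
The windows were placed on the signal, so each holds it at the same position. The letters AATAAA start 22 to 30 bases before the annotated end of the transcript.

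The sorted samples carried most defining eosinophil genes, with 8 of 9 markers at or above an RPKM of 1, against 31.0% of all 23477 genes. These included the eotaxin receptor Ccr3 at 155, Siglecf at 77.9 and Prg2, which encodes the major basic protein, at 74.3. The peroxidase gene Epx, at 0.265 from 11 reads, was the exception. Markers of other cells were present as well: all 13 epithelial genes (RPKM 2.00 to 89.3), 7 of 8 goblet cell, 6 of 7 fibroblast and 5 of 6 macrophage genes reached an RPKM of 1. Of the neutrophil markers 2 of 7 did, S100a9 at 23.9 and S100a8 at 10.2, while Mpo and Elane were listed at 0. Of the mast cell markers 2 of 8 did, Mcpt1 at 2.47 and Mcpt2 at 1.14, while Mcpt4, Tpsb2 and Tpsab1 were listed at 0. Of 14 neuronal and enteroendocrine markers, 3 reached an RPKM of 1, led by Pyy at 4.94. These cells also use SNAREs and the exocyst, and their part in the levels given here was not tested. Fewer cells of a type and less RNA per cell cannot be told apart in such bulk samples.

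Most of the fusion machinery was present at a measurable level, and 1 gene dominated it. Vamp2 alone held 38.4% of the summed RPKM of the 82 members, and the 10 highest members together held 78.5%. At least 1 RPKM was measured for 43 members (52.4%), against 31.0% of all 23477 genes. A further 27 members had reads but stayed below an RPKM of 1, and 12 were listed at 0. Reads were thus found for 70 of 82 members, against 69.0% of all genes, and an RPKM of 10 was reached by 14 of 82 members, against 8.77% of all genes. The median of the 82 members, zeros included, was an RPKM of 1.42, against 0.186 for all genes. On the scale of RPM, 61 members (74.4%) reached 1, against 50.9% of all genes. The share differed widely between families: the SNAREs, NSF with its adaptors and the exocyst lay above the share of all genes, and the synaptotagmins lay below it. The Unc13 and synaptotagmin-like groups and the other Sec22 proteins lay below it on RPKM and above it on RPM.

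**Figure D1:**
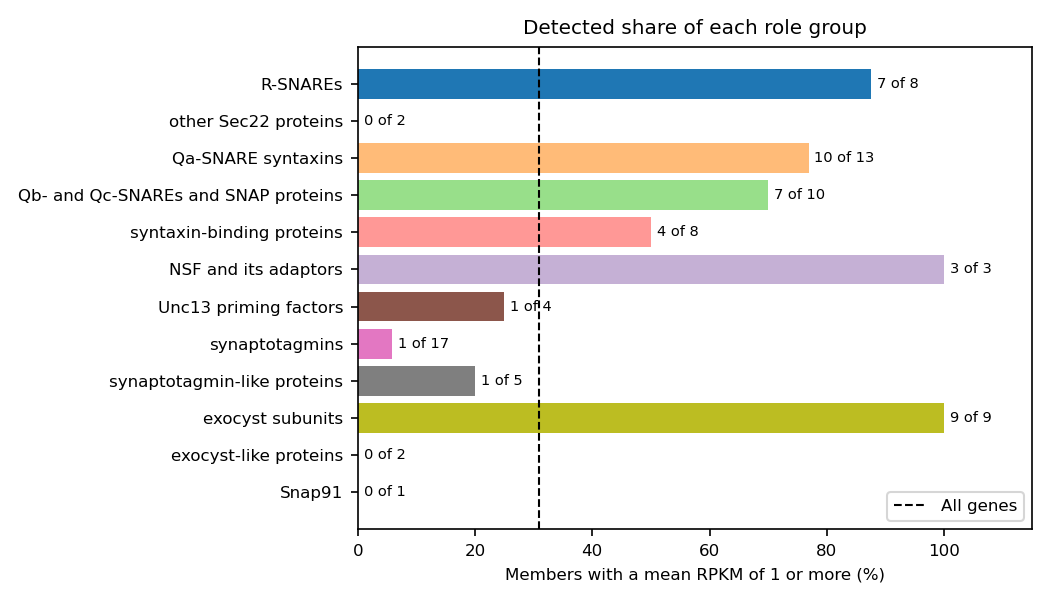
Percent of each role group with a mean RPKM of 1 or more in colonic eosinophils, with the count beside each bar. The dashed line is the share of all 23477 genes, 31.0%. All 9 exocyst subunits and all 3 genes of the NSF group reached an RPKM of 1, against 1 of 17 synaptotagmins.

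Among the R-SNAREs, which sit on the vesicle, 7 of 8 genes were at or above an RPKM of 1, against 31.0% of all genes. Their median RPKM was 8.08. Vamp2, the synaptobrevin of synaptic and many secretory vesicles, had an RPKM of 327 (322 to 333) from 14745 reads and ranked 90 among all genes. In the mm10 coordinates of the table it lies on chromosome 11 from 69088528 to 69092381. Vamp2 made up 84.0% of the summed RPKM of the R-SNAREs.

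Vamp8, the endobrevin of late endosomes and of secretory granules in several blood cell types, followed at an RPKM of 31.9 (29.2 to 34.9) from 505 reads. The RPKM of Vamp2 was 10.2 times that of Vamp8. On RPM, with no division by length, the ratio was 29.2. The GENCODE transcripts shown above are 2205 bases long for Vamp2 and 820 for Vamp8. Vamp3, the cellubrevin of recycling endosomes, had an RPKM of 11.0 (10.02 to 12.1), and Vamp4, of the trans-Golgi network, 8.39 (7.55 to 9.31). Sec22b, which works between endoplasmic reticulum and Golgi, stood at an RPKM of 7.76 (6.82 to 8.79).

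The other synaptobrevin, Vamp1, had an RPKM of 1.78 (1.39 to 2.25) and Vamp5, first described in muscle, 1.53 (1.06 to 2.15). Vamp7, the R-SNARE of late endosomes and lysosomes, was listed at 0. The table places it on an X chromosome scaffold that has no chromosomal position, and none of the 82 transcripts on such scaffolds has a read, so its 0 does not speak of the cells. The related proteins Sec22c and Sec22a had an RPKM of 0.756 (0.582 to 0.965) and 0.175 (0.0838 to 0.321).

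The Qa-SNAREs, the syntaxins of the target membrane, were carried by several genes rather than one. At or above an RPKM of 1 were 10 of 13 syntaxin genes, against 31.0% of all genes. The median RPKM of the 13 was 6.09, and the highest gene held 29.5% of their summed RPKM. Stx11 had the highest RPKM of a single transcript at 53.2 (50.8 to 55.7) from 1764 reads. It is the syntaxin needed for cytotoxic granule release in lymphocytes, and its loss in humans causes a familial form of hemophagocytic lymphohistiocytosis. Stx3, a syntaxin of apical membranes and of granules in several leukocytes, had an RPKM of 47.3 (45.6 to 49.1) from 2755 reads on the kept transcript. Summed over its transcripts Stx3 reached an RPKM of 73.0, above Stx11.

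Stx12, also called syntaxin 13 and found on recycling endosomes, had an RPKM of 40.5 (38.7 to 42.4). These 3 syntaxins stood apart from the rest: the next, the plasma membrane syntaxin Stx2, had an RPKM of 9.78 (8.91 to 10.7). On RPM their order was Stx3 at 358, Stx12 at 238 and Stx11 at 229, so which of them is highest depends on the scale and on how transcripts are combined. Stx16 of the trans-Golgi network had an RPKM of 8.73 (7.97 to 9.55). Stx4a, the mouse gene for syntaxin 4 of the plasma membrane, had 6.59 (5.68 to 7.61), and the late endosomal Stx7 had 6.09 (5.36 to 6.89), with intervals that overlap. On RPM Stx16, at 62.8, stood above Stx2, at 61.2, and Stx7, at 32.6, above Stx4a, at 24.2. The RPKM of Stx11 was 8.07 times that of Stx4a.

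Lower syntaxins included those of early and degradative routes. Stx18 of the endoplasmic reticulum had an RPKM of 3.66 (2.99 to 4.44), Stx17, which acts in autophagosome fusion, 1.82 (1.57 to 2.10), and Stx5a of the Golgi 1.30 (0.943 to 1.74). Stx19 stood at an RPKM of 0.871 (0.546 to 1.32), an interval that spans 1. Of the words searched, 21.0% for Stx5a and 17.6% for Stx19 also occur in another gene, which could touch their values. Stx1a, a syntaxin of the neuronal synapse, had 4 reads over the 6 libraries, or an RPKM of 0.112.

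Of the Qb- and Qc-SNAREs and the SNAP proteins, which supply both Q helices at once, 7 of 10 genes reached an RPKM of 1. The share of all genes was 31.0%. Snap47 had an RPKM of 36.1 (34.0 to 38.3) and Snap23, the widely expressed plasma membrane SNAP, 29.5 (27.7 to 31.4). The ratio of Snap47 to Snap23 was 1.22 on RPKM and 1.06 on RPM. Their neuronal relative Snap25 had an RPKM of 0.406 (0.216 to 0.695) from 13 reads, and Snap23 had 72.6 times its RPKM. Snap29, which pairs with Stx17, had an RPKM of 1.16 (0.912 to 1.45). Of the Snap23 sequence searched, 16.5% of the words also occur in another gene, which could touch its value.

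The single Q-SNAREs were lower. Vti1b, of late endosomes, had an RPKM of 4.92 (3.999 to 5.99), the early secretory SNARE Bet1 2.84 (2.18 to 3.64), Stx6 of the trans-Golgi network 2.30 (1.89 to 2.78) and the endosomal Stx8 2.19 (1.85 to 2.57). On RPM the order was Stx8 at 19.4, Stx6 at 14.0, Vti1b at 12.9 and Bet1 at 8.06. Vti1a had an RPKM of 0.924 (0.705 to 1.19) and the Golgi SNARE Gosr1 0.714 (0.529 to 0.945). The last 500 bases of Vti1b overlap an exon of Arg2 on the other strand. Strand use in counting is not given in the sources used here, so reads of the pair cannot be told apart.

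**Figure D2:**
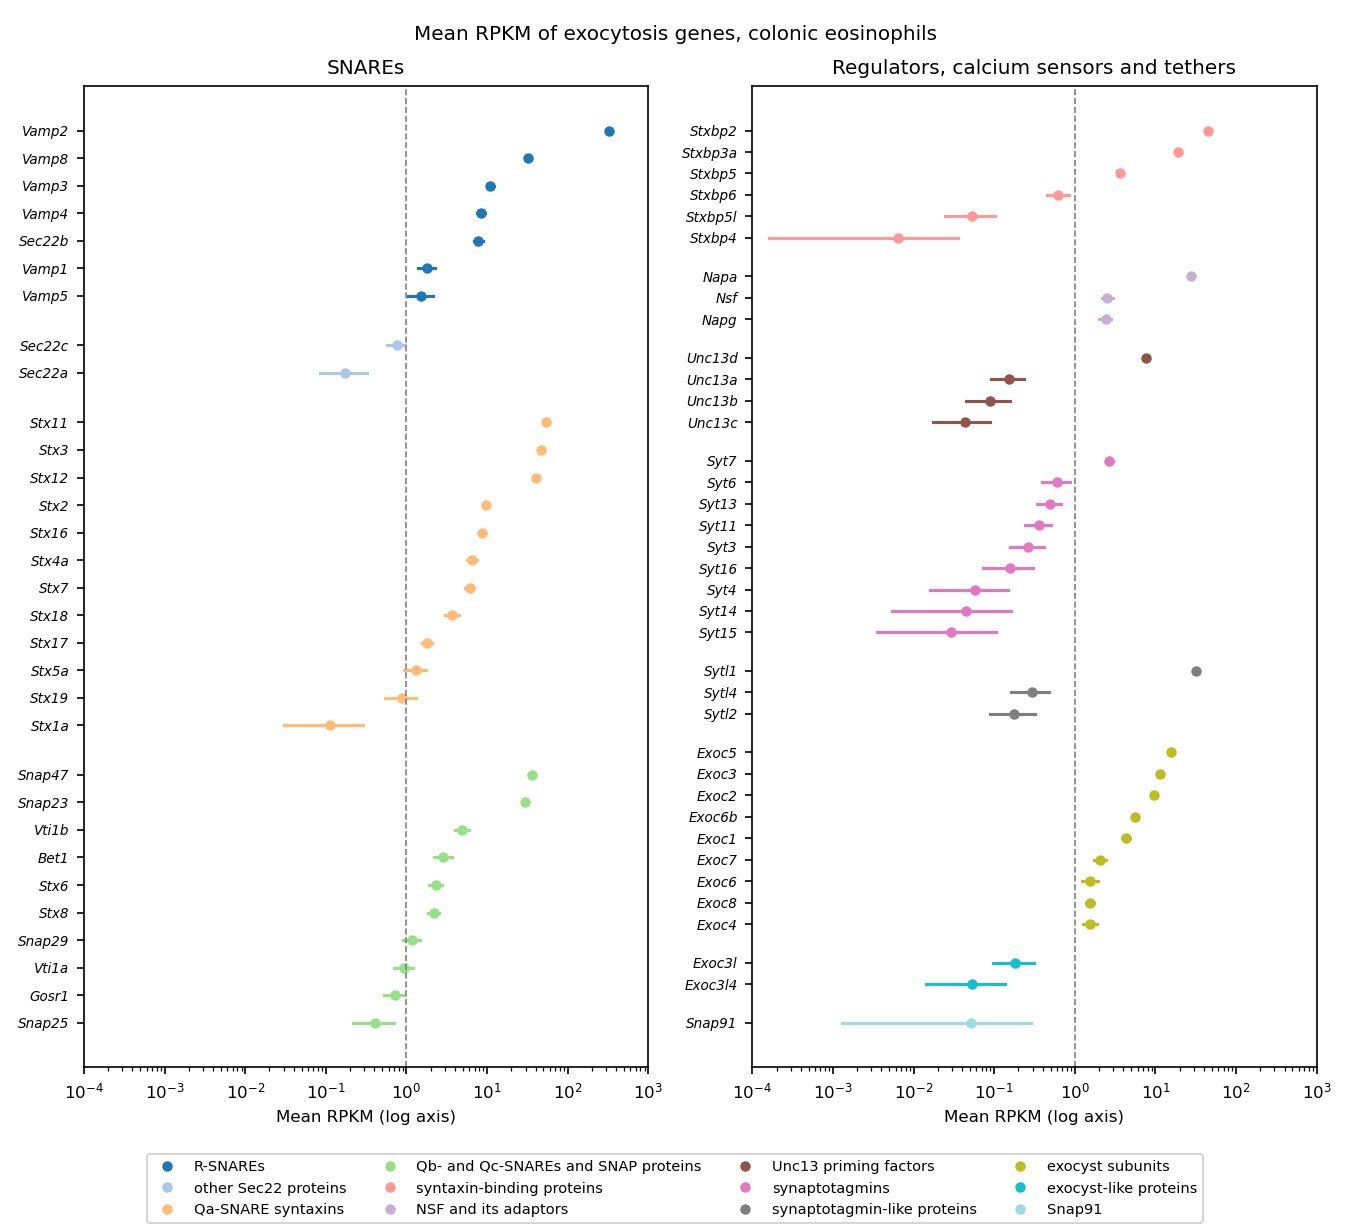
Mean RPKM (log axis) of 68 of the 70 exocytosis genes with reads in colonic eosinophils, by role and in falling order within each role. Points are the authors' means, bars are exact 95% Poisson intervals of the reads, and the dashed line is an RPKM of 1. Vamp2 stands alone at 327, and in most families the lowest members have wide intervals from few reads.

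The syntaxin-binding genes were led by those that serve the syntaxins above. Stxbp2, the Munc18 protein that partners Stx11 and Stx3 and whose loss in humans causes another form of hemophagocytic lymphohistiocytosis, had an RPKM of 44.4 (42.7 to 46.1) from 2626 reads. Stxbp3a, the partner of syntaxin 4, now named Stxbp3, had an RPKM of 19.3 (17.9 to 20.7). Stxbp2 stood at 2.30 times Stxbp3a on RPKM and 3.62 times on RPM. In the Stxbp2 sequence searched, 16.3% of the words also occur in another gene.

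Stxbp5, or tomosyn, which binds syntaxins in place of an R-SNARE and restrains fusion, had an RPKM of 3.69 (3.41 to 3.99) but 632 reads. It ranked 26 among the members by RPKM and 14 by RPM. Stxbp6, another syntaxin binder with a VAMP-like domain, had an RPKM of 0.626 (0.447 to 0.852). Stxbp5l had 9 reads, Stxbp4 had 1 read, and the pseudogene Stxbp3b was listed at 0. In all 4 of 8 syntaxin-binding genes reached an RPKM of 1, against 31.0% of all genes.

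All 3 genes of the disassembly step reached an RPKM of 1, against 31.0% of all genes. Napa, the alpha form of the soluble NSF attachment protein, had an RPKM of 27.4 (26.0 to 28.9), against 2.54 (2.18 to 2.94) for the ATPase Nsf itself and 2.41 (2.02 to 2.85) for the gamma form Napg. Napa was 10.8 times higher than Nsf on RPKM and 7.27 times higher on RPM. The intervals of Nsf and Napg overlap.

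In the priming family a single gene carried the level. Unc13d, the Munc13 protein of cytotoxic and other blood cell granules, had an RPKM of 7.69 (7.10 to 8.32) from 622 reads, 96.4% of the family's summed RPKM. Its relatives, best known from synapses, Unc13a, Unc13b and Unc13c had 20, 11 and 7 reads, with RPKM between 0.0430 and 0.151. UNC13D is also one of the human hemophagocytic lymphohistiocytosis genes, and together the members linked to that disease, Stx11, Stxbp2 and Unc13d, stood at an RPKM of 53.2, 44.4 and 7.69.

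Genes of the synaptotagmin family, not all of which encode calcium sensors, were nearly all low. An RPKM of 1 was reached by 1 of 17 genes (5.88%), against 31.0% of all genes. The median RPKM was 0.0289, and 8 genes were listed at 0. Syt7, a high-affinity calcium sensor of lysosome and granule exocytosis, had an RPKM of 2.69 (2.41 to 2.99) from 335 reads. Its 2.69 was 57.4% of the family's summed RPKM. The next were Syt6 at an RPKM of 0.597 (0.397 to 0.863), Syt13 at 0.492 (0.342 to 0.684) and Syt11, which lacks calcium binding, at 0.356 (0.244 to 0.503). The fast sensors of the synapse, Syt1, Syt2 and Syt9, were listed at 0, as were Syt5, Syt8, Syt10, Syt12 and Syt17. On RPM 6 of the 17 (35.3%) reached 1, against 50.9% of all genes. On that scale Syt13 stood at 4.55, Syt11 at 4.16 and Syt6 at 3.64.

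Among the synaptotagmin-like proteins, which bind Rab27 on granules, Sytl1 stood alone at an RPKM of 32.1 (30.4 to 33.8) from 1343 reads. It held 98.6% of the RPKM of this group of 5 genes and stood at 11.9 times Syt7 on RPKM and 4.01 times on RPM. Sytl4, known as granuphilin in endocrine cells, had an RPKM of 0.292 (0.163 to 0.482) and Sytl2 0.177 (0.0885 to 0.317), from 15 and 11 reads. Sytl3 and Sytl5 were listed at 0.

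**Figure D3:**
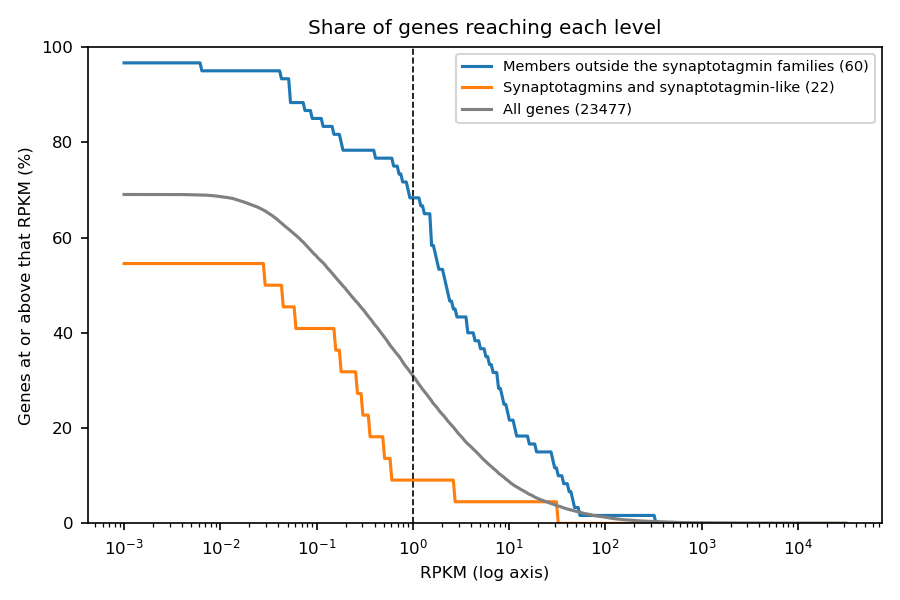
Percent of genes at or above each RPKM (log axis) in colonic eosinophils, for the 60 members outside the synaptotagmin families, the 22 synaptotagmin and synaptotagmin-like genes, and all 23477 genes. At an RPKM of 1 (dashed line) the values are 68.3%, 9.09% and 31.0%.

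The split in this plot was made after the values were seen. Outside the synaptotagmin families 41 of 60 members passed an RPKM of 1 and the median RPKM was 2.24, and within them 2 of 22 did, with a median of 0.0366.

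The exocyst, the complex that tethers vesicles to the plasma membrane before fusion, was detected in full. All 9 subunit genes, counting Exoc6 and its relative Exoc6b, were above an RPKM of 1, against 31.0% of all genes. Their range was 1.55 to 15.7, with a median of 4.36. Exoc5 had the highest RPKM at 15.7 (14.7 to 16.7), followed by Exoc3 at 11.5 (10.8 to 12.3) and Exoc2 at 9.63 (8.93 to 10.4). Exoc6b stood at 5.64 (5.17 to 6.14) and Exoc1 at 4.36 (3.88 to 4.89). The lower subunits were Exoc7 at an RPKM of 2.04 (1.72 to 2.41), Exoc6 at 1.55 (1.22 to 1.94), Exoc8 at 1.55 (1.36 to 1.75) and Exoc4 at 1.55 (1.26 to 1.87), and the intervals of the last 3 overlap. Exoc8 had 255 reads, so on RPM it stood at 33.2, above Exoc4 at 13.5. The exocyst-like Exoc3l and Exoc3l4 had 13 and 4 reads, and Snap91 had 1.

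**Figure D4:**
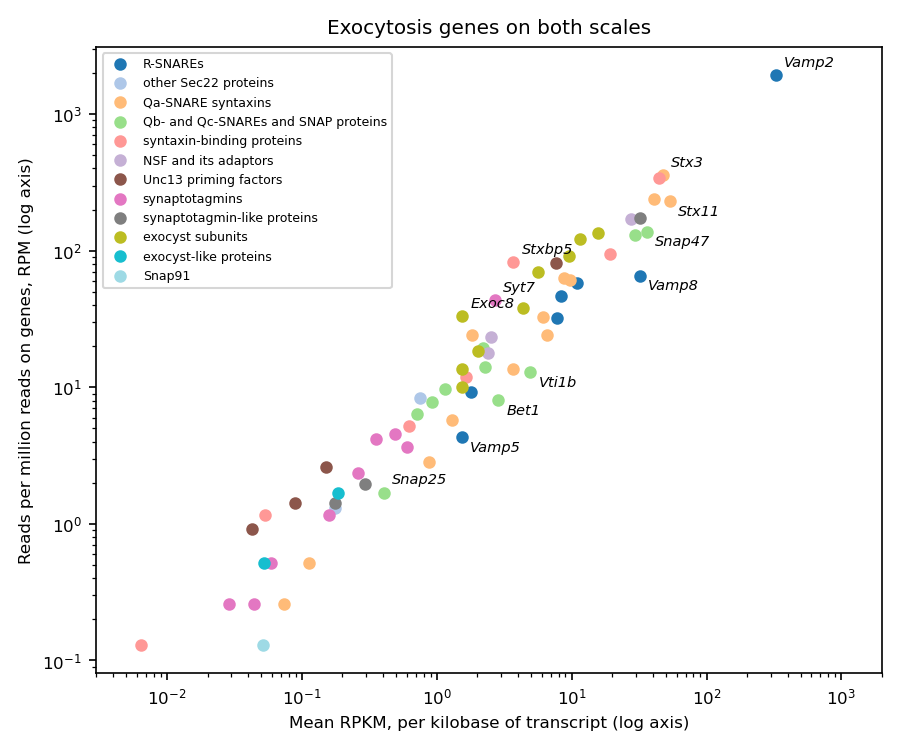
Reads per 1000000 reads on genes (RPM, log axis) against mean RPKM (log axis) for the 70 exocytosis genes with reads, coloured by role. Genes above the main band, such as Stxbp5 and Exoc8, have more reads than their RPKM shows, and genes below it, such as Vamp8, Vti1b and Vamp5, have fewer.

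The line of detection ran through a few genes. Just above an RPKM of 1 were Snap29 at 1.16, Stx5a at 1.30 and Vamp5 at 1.53. Just below it were Vti1a at 0.924, Stx19 at 0.871 and Sec22c at 0.756. The intervals of 4 members, Snap29, Stx5a, Vti1a and Stx19, span 1, and 41 members lie above 1 with their whole interval. Of the members with reads, 11 had fewer than 10.

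Several members have more than 1 RefSeq transcript in the table: 20 of 82, of which 18 had reads. Reads in more than 1 transcript were seen for 4. Stx3 is the clearest. Its transcript ending at position 11777489 on chromosome 19 (NM_152220) had 2755 reads and an RPKM of 47.3, and the transcript ending 2371 bases farther on, at 11775118 (NM_011502), had 1234 reads and an RPKM of 25.6. Another transcript with the farther end (NM_001025307) had 2 reads. The nearer end thus held 69.0% of the Stx3 reads (exact 95% binomial interval 67.6% to 70.5%).

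For Stx5a and Syt3 both transcripts list the same number, 44 and 18 reads each, so the same reads may stand in both. In 14 of the 18 members with several transcripts and reads, including Stx11, Snap23 and Stx16, all reads stand in 1 transcript. Across the whole table, 63.7% of the 2097 sets of transcripts with the same start and end and with reads show this, so the kept transcript does not show which isoform was made.

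Genes of the same pathway that the symbol rule does not take were read from lists of partners. An RPKM of 1 was reached by 23 of 54 partner genes (42.6%), against 31.0% of all genes. Their median RPKM was 0.725, against 0.186 for all genes. On RPM 39 of the 54 (72.2%) reached 1, against 50.9% of all genes. Further SNARE genes did so in 4 of 6 cases: the R-SNARE Ykt6 had an RPKM of 18.4 (17.2 to 19.7), Use1 11.2 (9.51 to 13.0), Bet1l 8.50 (7.53 to 9.57) and Gosr2 1.16 (0.914 to 1.45). Of 5 further Sec1/Munc18-type genes 3 did, with Vps33b, the one linked to platelet granule formation in humans, at an RPKM of 7.32 (6.53 to 8.17), Scfd1 at 4.46 (3.79 to 5.21), Vps45 at 1.30 (1.02 to 1.63) and Vps33a at 0.628 (0.466 to 0.828).

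Of the genes that build lysosome-related granules, 13 of 19 (68.4%) were at or above an RPKM of 1, against 31.0% of all genes. Their median RPKM was 2.28. Dtnbp1, a subunit of the BLOC-1 complex, had an RPKM of 26.0 (24.2 to 28.0), the AP-3 adaptor subunit Ap3d1 24.5 (23.4 to 25.6), Hps3 of the BLOC-2 complex 20.2 (19.0 to 21.4) and Bloc1s1 20.1 (17.7 to 22.8). Its value is uncertain, as 88.4% of the words searched for Bloc1s1 also occur in another gene. On RPM Ap3d1 stood at 265, Hps3 at 146, Dtnbp1 at 91.3 and Bloc1s1 at 33.2. Among Rab and docking genes 2 of 11 (18.2%) reached an RPKM of 1, below the 31.0% of all genes, and 6 of 11 (54.5%) reached an RPM of 1, above the 50.9% of all genes. Rab3d had an RPKM of 4.68 (4.20 to 5.20) and Rab27a, the granule Rab that binds Sytl1 and Unc13d, 3.31 (2.86 to 3.82). The effector Mlph and the motor Myo5a had an RPKM of 0.767 and 0.683, and Rab27b had 1 read.

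Calcium and priming factors outside the synaptotagmins were low as well, 1 of 13 (7.69%) reaching an RPKM of 1, against 31.0% of all genes. Their median RPKM was 0.0420, against 0.186 for all genes. On RPM 4 of the 13 (30.8%) reached 1, against 50.9% of all genes. A single gene thus passed on RPKM. That gene was Doc2g at 5.04 (4.22 to 5.96), an uncertain value, since 100% of the words searched also occur in another gene. Rims2 and Cplx2, a complexin that clamps SNARE complexes, had an RPKM of 0.683 (0.454 to 0.987) and 0.673 (0.511 to 0.870), and Cadps2 had 0.216 (0.124 to 0.351).

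Promoter sequences are shown for Stx11 and Stxbp2, a syntaxin and a Munc18 gene at high levels whose proteins bind each other. The windows are from RefSeq (GRCm38.p6), 250 bases before to 50 after the start site given there. For Stxbp2 that site differs from the start of the measured transcript, at 3631160, which lies past the end of the window. Capitals mark matches, on either strand, to the ETS letters AGGAAG, the GC box GGGCGG, the E-box CACGTG and the GATA letters AGATAA.
Stx11 (chr10:12964210-12964509, - strand): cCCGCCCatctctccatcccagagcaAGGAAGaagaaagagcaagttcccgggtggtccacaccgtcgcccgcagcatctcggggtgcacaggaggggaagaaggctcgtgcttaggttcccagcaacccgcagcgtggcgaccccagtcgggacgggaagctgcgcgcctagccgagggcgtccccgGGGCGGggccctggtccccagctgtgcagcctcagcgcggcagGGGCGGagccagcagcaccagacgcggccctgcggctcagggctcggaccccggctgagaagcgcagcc
Stxbp2 (chr8:3630859-3631158, + strand): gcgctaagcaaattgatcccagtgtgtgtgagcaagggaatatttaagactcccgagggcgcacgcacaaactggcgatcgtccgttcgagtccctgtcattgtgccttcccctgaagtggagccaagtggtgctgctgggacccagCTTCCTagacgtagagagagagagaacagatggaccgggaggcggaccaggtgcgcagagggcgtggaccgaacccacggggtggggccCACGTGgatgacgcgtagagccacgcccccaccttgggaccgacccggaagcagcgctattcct
The Stx11 window holds 3 GC boxes and 1 ETS match, and the Stxbp2 window 1 ETS match and 1 E-box. No matches in these windows overlap each other. RefSeq windows were matched for 65 of the 82 members, 81 windows in all.

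The GC box is in 51 of these 81 windows (63.0%), against 35.7% of 32851 RefSeq windows of the same length. CACGTG, the core bound by several basic helix-loop-helix factors, is in 14 of 81 (17.3%), against 7.15%. AGGAAG is in 21 (25.9%), against 35.4%, and AGATAA in 6 (7.41%), against 11.2%. Among members at an RPKM of 1 or more, the GC box is in 31 of 46 windows, against 20 of 35 for the other members, AGGAAG in 15 against 6, CACGTG in 9 against 5 and AGATAA in 1 against 5. The detected members with CACGTG are Napa, Nsf, Stxbp2, Stx6, Exoc1 and Vamp4. These are matches of letters, not sites shown to be bound.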

How the data were processed

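Colonic eosinophils of naive mice were profiled by CEL-Seq, 2 samples with 3 technical libraries each, in 1 group. Per the submitters' processing notes, STAR 2.4.2a and DESeq were used with mm10. The counter, annotation, transcript lengths and read total behind the values were not given in the sources used here. For each of 31295 transcripts the authors deposited an RPKM and a mean read total. Multiplied by 6, 100% of the totals are whole within 0.0001, against 48.8% as deposited. There were 0 columns of other samples.

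RPKM corrects for length, which 3′ tags do not need, so it lowers long transcripts against short ones. RPM is given for the count of all members and for some lists, ratios and orders. An order given on RPKM alone need not hold on RPM.

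Keeping 1 transcript per gene left 23477 genes. Totals times 6 gave reads, with exact 95% Poisson intervals scaled to RPKM. The interval code was run on simulated independent Poisson reads, which cannot test whether the deposited reads vary in that way. An RPKM of 1 was the detection minimum. With 1 group of means there was no test. The members and all lists were chosen with earlier results of these data known. Values of a few members are not reported here by name, but all 82 enter the counts and medians. Any other member could be named, and of each partner list the 4 highest. Other partner and marker genes were chosen after their values were seen.

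Shared sequence was measured with 35-base words from the final 500 bases of GENCODE M21 transcripts. It was searched for 81 members: 71 had no shared word and 1 (Stxbp3b) had 50% or more. Another 4 (Vti1b, Exoc3l, Exoc3l4 and Sytl3) overlap an exon on the other strand. Python 3.11.15 was used with scipy 1.17.1, pandas 2.3.3, numpy 2.4.6 and matplotlib 3.10.9.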

Additional observations from a re-analysis of the deposited data

How the results depend on the processing

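The 43 members at an RPKM of 1 or more stayed within 1.5 times under RPM (61), RPKM rescaled to a sum of 1000000 (54), the transcript with the highest RPKM (43), the sum over transcripts (43) and without members with 50% or more shared words (43). Leaving out members with 50% or more shared words also left out Vamp7, which was not searched. The share of all genes at 1 or more moved too, from 31.0% to 50.9% on RPM and 47.4% on rescaled RPKM. Other minimums moved the count to 70 for any RPKM above 0, where 69.0% of all genes stood, and 23 at 5 or more. The share of all genes at 5 or more was not computed. The median of 1.42 became 8.19 on RPM and 5.96 on rescaled RPKM, and lay between 1.42 and 1.80 under the other alternatives. All genes moved with it, to a median of 1.04 on RPM and 0.783 on rescaled RPKM. Of the 12 role groups, 6 lay above the share of all genes as reported, 9 on RPM and 7 on rescaled RPKM. The 23 partner genes detected became 39 on RPM and 37 on rescaled RPKM. The share of Stx3 in its nearer end was 69.0% by reads and 64.8% by summed RPKM, an alternative chosen after the data were seen. Depth limits the lowest members, of which 11 rest on fewer than 10 reads. Leaving out each sample was not run, since the table holds 1 mean for both. No paired analysis was possible because there is 1 group and no value per sample.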
